A study of Mus musculus with 23 samples.

Results

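The levels of 8 genes were followed across embryos that differ in p53 genotype: Crk, Mapkapk3, Clu, Adcy7, Atp9a, Agbl3, C1qtnf4 and Bloc1s2. They were picked because their levels had been seen to be higher in heat-treated than in control pools of several genotypes. The 8 genes are 8 of 18069 genes on the array and have 11 of its 36227 probes, of which 10 could be tested. The choice rested on the heat against control values, so those values are given here as a description with no test, and the choice had no stated threshold. Comparisons between genotypes within a bath were not the basis of the choice and were tested. The genes were still picked with their heat responses in view. The size of the heat response was also tested between genotypes. That contrast is built from the heat against control values used for the choice, so its p-values are not independent of the choice.

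The samples were pools of whole mouse embryos of day 8.5 from crosses of p53 heterozygous mice, so that p53 +/+ (wildtype), p53 +/- (heterozygous) and p53 -/- (null) embryos came from the same kind of mating. Control embryos were held at 38 °C and heat embryos at 43 °C, for 10 minutes in both cases, and RNA of 3 to 7 embryos made 1 pool. There were 4 pools in each of the 6 groups of genotype and bath, labelled A to D, except null heat with 3. The sources used here name no p53 allele, strain, litter or time from bath to collection. The labels call the pools biological replicates. No litter is named, so a p-value reflects how far these pools spread.

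Mapkapk3 encodes a protein kinase that the p38 stress kinases switch on, and Crk an adaptor that links tyrosine-phosphorylated proteins to small GTPases that shape the actin skeleton. Clu encodes clusterin, a secreted chaperone that holds unfolded proteins in solution, and C1qtnf4 a secreted protein with C1q-like domains. Adcy7 is an adenylyl cyclase, which makes cyclic AMP. Atp9a is a P4-type ATPase of endosomes, Bloc1s2 a subunit of the BLOC-1 and BORC complexes that act in making and moving lysosome-related organelles, and Agbl3 a carboxypeptidase that trims glutamates from the tail of tubulin. Heat shock factors, which drive the classical chaperone genes after heat, bind inverted repeats of a short unit, and p53 is a transcription factor that stress stabilizes.

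Levels were read on CodeLink arrays, glass slides of short oligonucleotide probes on which labelled cRNA is detected by fluorescence. They are given as normalized intensities in array units, which order pools for 1 probe but do not compare 1 gene with another. The 12 control columns held 7576 to 11666 empty cells each, and the 11 heat columns held none but had 129 to 203 cells coded as missing, so bath and the handling of the arrays cannot be told apart. The highest deposited value on an array ran from 181 to 488. Control pools also differed within a genotype. Each array was scored on the log2 difference of heterozygous controls A and B from C and D over the probes of all other genes, a split chosen after the data were seen and scaled so that the means of these pairs lie 1 apart by construction. On that scale the wildtype controls lay between 0.07 and 0.43, the null controls between -0.61 and -0.24, and the heat pools between -0.30 and 0.43. Among heat pools, Hspa1a, an inducible Hsp70 gene, read 78.7, 0.88, 123 and 102 in wildtype pools A to D, 1.49 to 2.09 in the heterozygous pools, and 1.77, 120 and 2.10 in null pools A to C, against 0.50 to 1.04 in all controls. Wildtype pool B and null pool B thus did not follow the other pools of their groups in that gene. The p53 transcript was not analysed here, so the genotype labels were not checked on it.

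The whole-embryo label was set against defining markers on the 11 heat arrays. All 4 of 4 neural tube markers, 3 of 4 heart muscle, 4 of 5 primitive red cell, 4 of 5 somite, 4 of 5 endothelial, 5 of 7 yolk sac and 2 of 4 trophoblast or decidual markers were above the 40th percentile of every heat array. Myh6, Cdh5 and Tpbpa, each a defining marker of heart, endothelium and placenta in turn, were above it on none. None of 4 macrophage markers passed on all of them.

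A pair of upstream sequences show the search for the heat shock repeat, each the 250 bases before a RefSeq transcript start on build GRCm38.p6, written 5′ to 3′ on the gene's strand. Mapkapk3 (chr9:107289878-107290127, minus strand) is shown because its heat response differed between genotypes, and Hspb1 (chr5:135887669-135887918, plus strand) because it is a chaperone gene that rose in all genotypes. Capitals mark GAANNTTC.
Mapkapk3: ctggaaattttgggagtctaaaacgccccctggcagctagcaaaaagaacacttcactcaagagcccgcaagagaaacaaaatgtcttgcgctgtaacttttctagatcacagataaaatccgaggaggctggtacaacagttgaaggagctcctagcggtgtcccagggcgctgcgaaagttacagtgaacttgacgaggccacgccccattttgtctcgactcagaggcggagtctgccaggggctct
Hspb1: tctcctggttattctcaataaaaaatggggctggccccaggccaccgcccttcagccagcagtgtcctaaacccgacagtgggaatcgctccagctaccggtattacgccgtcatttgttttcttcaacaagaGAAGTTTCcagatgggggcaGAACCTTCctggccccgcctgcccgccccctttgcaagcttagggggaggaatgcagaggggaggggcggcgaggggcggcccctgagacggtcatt
The Hspb1 window held 2 matches, at 117 and 97 bases before the start, and the Mapkapk3 window none. Matches to GAANNTTC or TTCNNGAA, each its own reverse complement so that 1 strand covers both, were in 12.8% of all 32851 windows in the RefSeq table. None of the 12 windows found for 6 of the genes held one, and Clu and C1qtnf4 had no window in the table. A decamer pattern of purines and pyrimidines that makes up part of a p53 site, not a whole one, was added after the data were seen. It was in 7.13% of all windows, in neither Mapkapk3 window, and in 1 of the 4 windows of Atp9a. These are counts of letters in a window and say nothing of binding.

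Heat pools lay above control pools for most of the 8 genes, by steps from 1.22-fold (Bloc1s2, heterozygous) to 3.43-fold (Mapkapk3, wildtype) where the pools did not overlap. With 1 probe a gene (the brightest tested), all heat pools lay above all control pools of the same genotype for 7 of 8 genes in wildtype, in heterozygous and in null embryos. Over all 12651 tested genes that held for 5.76%, 4.08% and 11.1% in the same order. Nothing is read from this count, since the genes were picked on this contrast. The median log2 difference of the 8 genes was 0.62, 0.56 and 0.64, and that of all genes -0.02, 0.00 and -0.01. In whole embryos, a change in the number of cells of a type and a change in RNA per cell cannot be told apart.

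**Figure D1:**
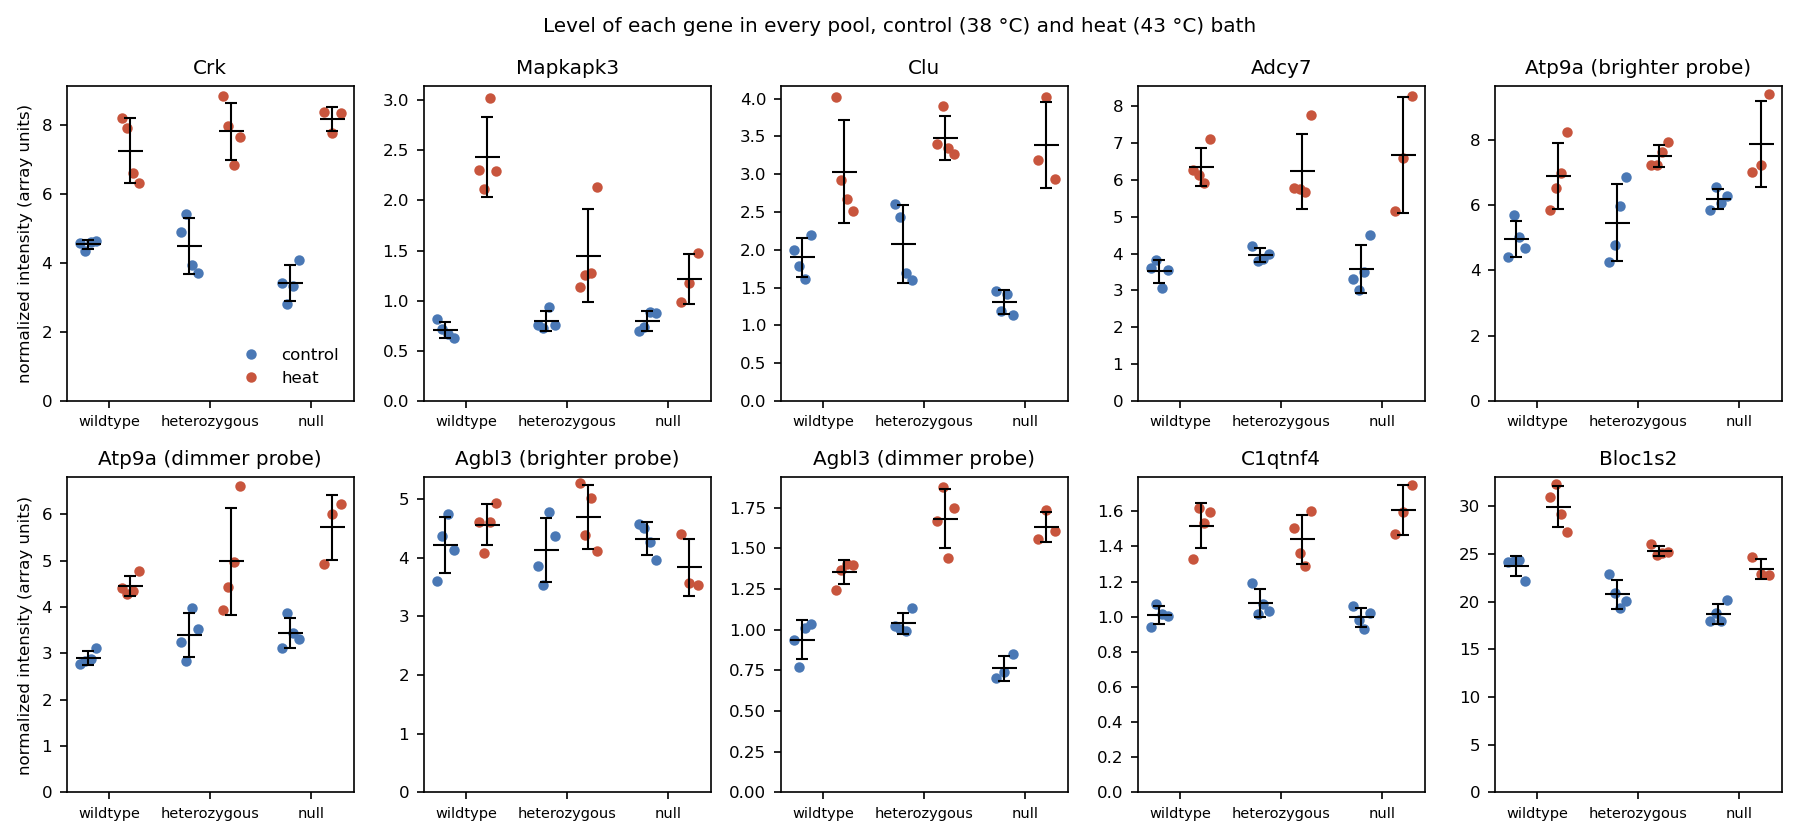
Normalized intensity (array units, linear axis from 0) of the 8 genes in each pool, by genotype, with control pools in blue and heat pools in red; horizontal bars are means and whiskers 1 SD over 4 pools (3 for null heat and for the dimmer Agbl3 probe in null controls). Mapkapk3 reached 2.12 to 3.02 in wildtype heat pools and 0.99 to 1.48 in null heat pools, and the brighter Agbl3 probe overlapped between baths.

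**Figure D2:**
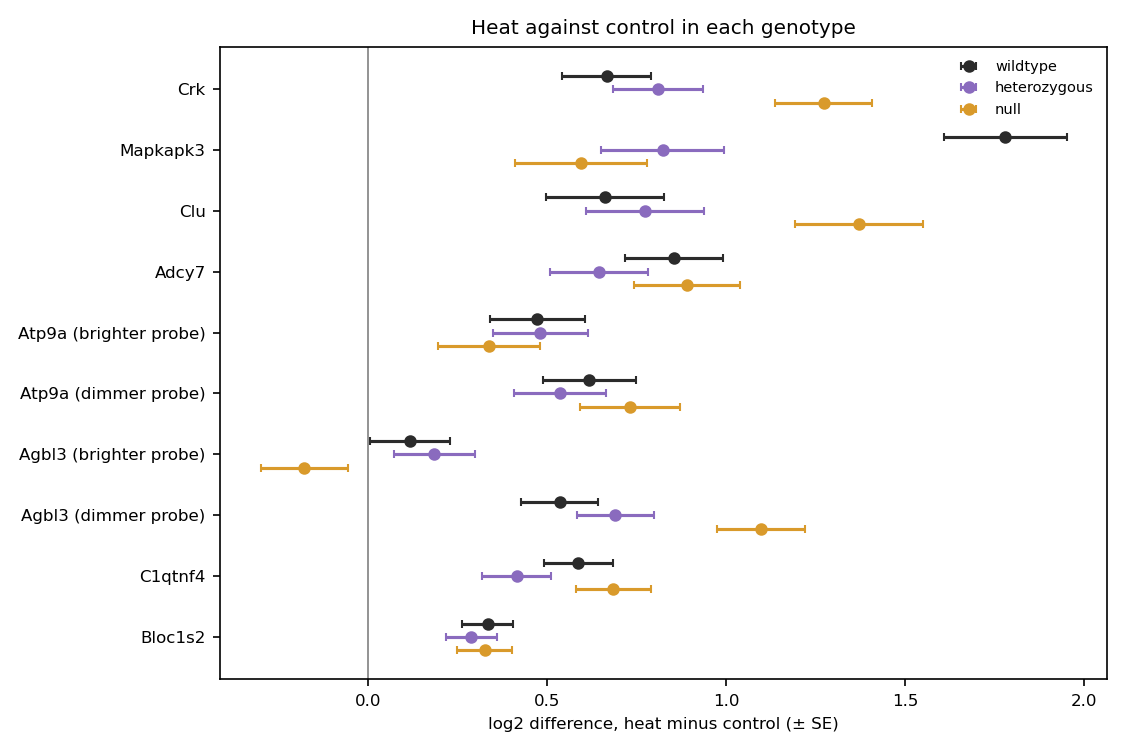
Log2 difference of heat minus control pools for each probe, with its standard error from the fit over all arrays, in wildtype (black), heterozygous (purple) and null (yellow) embryos; 0 is no difference. Mapkapk3 had its widest difference in wildtype (1.78) and its narrowest in null embryos (0.59), while Crk and Clu had theirs the other way round.

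Mapkapk3 had the widest heat step of the 8 genes in wildtype embryos, and this step was narrower in null embryos. Its wildtype control pools read 0.82, 0.72, 0.67 and 0.62, and the wildtype heat pools 2.31, 2.12, 3.02 and 2.30. Heterozygous controls read 0.76, 0.73, 0.94 and 0.76, and heterozygous heat pools 1.14, 1.25, 1.28 and 2.13. Null controls read 0.70, 0.73, 0.89 and 0.88, and null heat pools 0.99, 1.18 and 1.48. Every heat pool lay above every control pool, all null heat pools lay below all wildtype ones, and heterozygous pool D alone of its group reached the wildtype range. The heat step was 3.43-fold in wildtype (log2 1.78 ± 0.17, SE), 1.77-fold in heterozygous (0.82 ± 0.17) and 1.51-fold in null embryos (0.59 ± 0.19).

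In the heat bath, Mapkapk3 was lower in null than in wildtype pools, at 0.496 of the wildtype level (log2 -1.01 ± 0.19, 95% interval -1.39 to -0.63, limma adjusted p = 0.012, all 3 null pools below all 4 wildtype pools). The difference between the heat steps of null and wildtype embryos also passed the threshold (log2 -1.19 ± 0.25, interval -1.71 to -0.66, limma adjusted p = 0.025). It is built from the heat steps on which the genes were picked, so this p is not independent of the choice. Control pools of null and wildtype embryos overlapped (0.17 ± 0.17, limma adjusted p = 0.54). Heterozygous heat pools had a mean of 1.45 ± 0.46 (SD, n = 4), between wildtype at 2.44 ± 0.40 (n = 4) and null at 1.21 ± 0.25 (n = 3). The step from wildtype to heterozygous missed the threshold (log2 -0.78 ± 0.17, limma adjusted p = 0.075), as did heterozygous against null (null minus heterozygous -0.23 ± 0.19, limma adjusted p = 0.92, interval -0.61 to 0.16). The difference of heat steps between heterozygous and wildtype was -0.96 ± 0.24 (limma adjusted p = 0.33). Mapkapk3 was dim in control pools. With empty cells ranked lowest, these lay at the 40.4 to 49.1 percentile of their arrays, and heat pools at 49.2 to 69. Testing required a level over the 40th percentile of an array's measured values on at least 3 arrays. Every control pool lay under that level, so the probe was tested because of its heat pools. Both null against wildtype calls held without this filter.

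These calls rested on few pools. Without null heat pool B the null against wildtype value in heat was -0.997 (limma adjusted p = 0.066), without wildtype heat pool C -0.90 (0.06), and with a spread taken from these groups alone -1.01 (0.23). The difference of heat steps lost its call without wildtype control B, C or D, null control B or C, wildtype heat C or D, or null heat A or B (limma adjusted p 0.051 to 0.097). Without heterozygous heat pool D, the heterozygous heat pools were lower than wildtype (-0.98, limma adjusted p = 0.007). Wildtype heat pool B was the lowest of its group in Hspa1a (0.88) and in Mapkapk3 (2.12), and pool C the highest in both (123 and 3.02). Among null heat pools, B was highest in Hspa1a (120) and C in Mapkapk3 (1.48). Without wildtype heat pool B the null against wildtype value was -1.07 (limma adjusted p = 0.013). Yolk sac markers were set beside these values. The 7 markers summed to 89.6 to 206 in wildtype, 159 to 244 in heterozygous and 134 to 185 in null heat pools, ranges that overlap. Bright markers weigh most in such a sum. In heat pools Ttr read 44.9 to 108 and Apoa1 27.8 to 73.7, while Apob read 0.34 to 1.67 and Amn 0.22 to 2.21. In heat, 2 of 7 were at an unadjusted p under 0.05 for null against wildtype (median log2 0.55) and 6 of 7 for heterozygous against wildtype (0.86). For the difference of heat steps, 4 of 7 were at that p for null minus wildtype (1.23) and 4 of 7 for heterozygous minus wildtype (1.14). Limma called 0 of 7 in each of these 4 comparisons, and the medians of all genes were 0.04, 0.04, 0.02 and 0.02. Over all 21979 tested probes, 4475, 2581, 4867 and 1324 were at that unadjusted p, in the same order. For null against wildtype in heat, so were 3 of 5 somite and 1 of 4 neural tube markers. Tested heart muscle, red cell, endothelial and trophoblast or decidual markers gave 0, and limma called none of these lists. The part of these markers in the result was not tested.

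Crk and Clu were at their lowest in null controls, while their heat pools overlapped between the genotypes. Crk read 4.59, 4.36, 4.62 and 4.65 in wildtype controls, 4.92, 5.44, 3.96 and 3.71 in heterozygous controls, and 3.41, 2.83, 3.33 and 4.09 in null controls. Its heat pools read 8.22, 7.92, 6.61 and 6.32 in wildtype, 8.85, 7.98, 6.85 and 7.65 in heterozygous, and 8.40, 7.78 and 8.37 in null embryos. All null controls lay below all wildtype controls, heterozygous pools A and B lay above both, and the heat groups overlapped. The heat step was 1.59-fold in wildtype (log2 0.67 ± 0.12, SE), 1.75-fold in heterozygous (0.81 ± 0.12) and 2.41-fold in null embryos (1.27 ± 0.13).

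Clu read 2.002, 1.79, 1.61 and 2.19 in wildtype controls, 2.60, 2.44, 1.69 and 1.59 in heterozygous controls, and 1.46, 1.20, 1.42 and 1.14 in null controls. Heat pools read 4.02, 2.92, 2.67 and 2.51 in wildtype, 3.40, 3.91, 3.34 and 3.27 in heterozygous, and 3.19, 4.02 and 2.94 in null embryos. Null controls lay below every other control pool, and heterozygous controls A and B again lay above the rest. The heat step of Clu was log2 0.66 ± 0.17, 0.77 ± 0.17 and 1.37 ± 0.18 (SE) in wildtype, heterozygous and null embryos. Clu is also on a probe that names a second gene, which was not counted.

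In control pools, null against wildtype gave 3 of the 8 genes lower and none higher, where 8.5% of all genes were called in either direction and 5.01% lower. All null pools lay below all wildtype pools for these 3 genes, as for 11.7% of all genes, and above them for 1 of 8, Atp9a, as for 14.7%. Crk was lower by log2 -0.43 ± 0.12 (limma adjusted p = 0.038), Clu by -0.54 ± 0.17 (limma adjusted p = 0.045) and Bloc1s2 by -0.34 ± 0.07 (limma adjusted p = 0.013). The split of control pools moved with these values: with each array's score on it as a covariate, a fit added after the data were seen, the values were -0.25 (limma adjusted p = 0.55) for Crk, -0.15 (0.76) for Clu and -0.28 (0.2) for Bloc1s2. Leaving out any 1 wildtype control, or null control A, B or C for Crk and B, C or D for Clu, ended those calls (limma adjusted p 0.056 to 0.13 and 0.053 to 0.13). The heat steps of Crk and Clu were wider in null than in wildtype embryos by 0.61 ± 0.18 (limma adjusted p = 0.099, interval 0.23 to 0.99) and 0.71 ± 0.24 (limma adjusted p = 0.13, interval 0.21 to 1.22), both short of the threshold. No heterozygous against wildtype control comparison passed: 0 of 8 genes, with 1 at an unadjusted limma p under 0.05 and 0% of all genes called. Over all 21979 tested probes, 1302 were at that unadjusted p. Null against heterozygous controls gave 0 of 8, with 3 at an unadjusted p under 0.05 and 0.0395% of all genes called, though all null pools lay below all heterozygous ones for Clu, 1 of 8 genes against 4.13% of all. In this comparison 3990 of the 21979 probes were at that unadjusted p. Cell markers also differed between null and wildtype controls. Of 4 tested endothelial markers, Pecam1 and Cldn5 were lower in null controls, while Kdr had means of 22.4 in null and 21.0 in wildtype controls and Tek 6.19 and 5.69. These 4 markers summed to 34.9 to 41.3 in wildtype and 29.9 to 40.4 in null control pools, sums in which Kdr weighs most. Limma also called 1 of 4 neural tube markers higher and 1 lower, and 1 of 4 primitive red cell markers lower. It called 0 of 2 heart muscle, 0 of 5 somite, 0 of 7 yolk sac and 0 of 2 trophoblast or decidual markers, with 0, 3, 2 and 0 at an unadjusted p under 0.05. For null against wildtype controls, 5736 of the 21979 probes were at that unadjusted p. The part of these markers in the result was not tested.

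Bloc1s2, the BLOC-1 and BORC subunit, had the narrowest heat step of the 7 genes whose heat and control pools did not overlap, and was lower in null than in wildtype pools in both baths. Wildtype controls read 24.2, 24.3, 24.4 and 22.1, heterozygous controls 22.9, 20.9, 19.4 and 20.04, and null controls 17.9, 18.8, 17.9 and 20.2. Heat pools read 31.0, 32.3, 29.3 and 27.3 in wildtype, 26.1, 24.95, 25.1 and 25.2 in heterozygous, and 24.7, 22.9 and 22.8 in null embryos. In heat the 3 genotypes did not overlap, and wildtype was highest and null lowest. Heat pools were 1.26-fold, 1.22-fold and 1.25-fold above controls in wildtype, heterozygous and null embryos (log2 0.33 ± 0.07, 0.29 ± 0.07 and 0.33 ± 0.08, SE). This step was 0.07 in wildtype and 0.17 in heterozygous embryos on the values as deposited.

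In the heat bath, null against wildtype gave 2 of 8 genes lower, Mapkapk3 and Bloc1s2, where 0.49% of all genes were called and 0.245% lower. All null pools lay below all wildtype ones for the same 2 genes, against 4.27% of all genes. Bloc1s2 differed by log2 -0.35 ± 0.08 (limma adjusted p = 0.039, interval -0.51 to -0.19). The value was -0.22 with arrays centred on their medians (limma adjusted p = 0.14) and -0.04 on the values as deposited (limma adjusted p = 0.83), a scale on which the median of all probes lay 0.14 higher in null than in wildtype heat arrays. Leaving out wildtype heat A, B or C or null heat B or C also ended the call (limma adjusted p 0.057 to 0.24). Heterozygous heat pools were all below wildtype ones, but the difference of -0.24 ± 0.07 missed the threshold (limma adjusted p = 0.18). The heat steps of Bloc1s2 in null and wildtype embryos differed by -0.01 ± 0.11 (interval -0.23 to 0.21), and by 0.28 on the values as deposited (limma adjusted p = 0.24). Heterozygous against wildtype in heat gave 0 of 8 genes, with 2 at an unadjusted limma p under 0.05 and 0.142% of all genes called, and null against heterozygous gave 0 of 8, with 1 at that p and 0.0079% of all genes called. Over all 21979 tested probes, 2581 and 992 were at that unadjusted p, in the same order. Bloc1s2 was the 1 gene of 8 whose heterozygous pools all lay below wildtype (1.53% of all genes) and whose null pools all lay below heterozygous (2.34%).

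**Figure D3:**
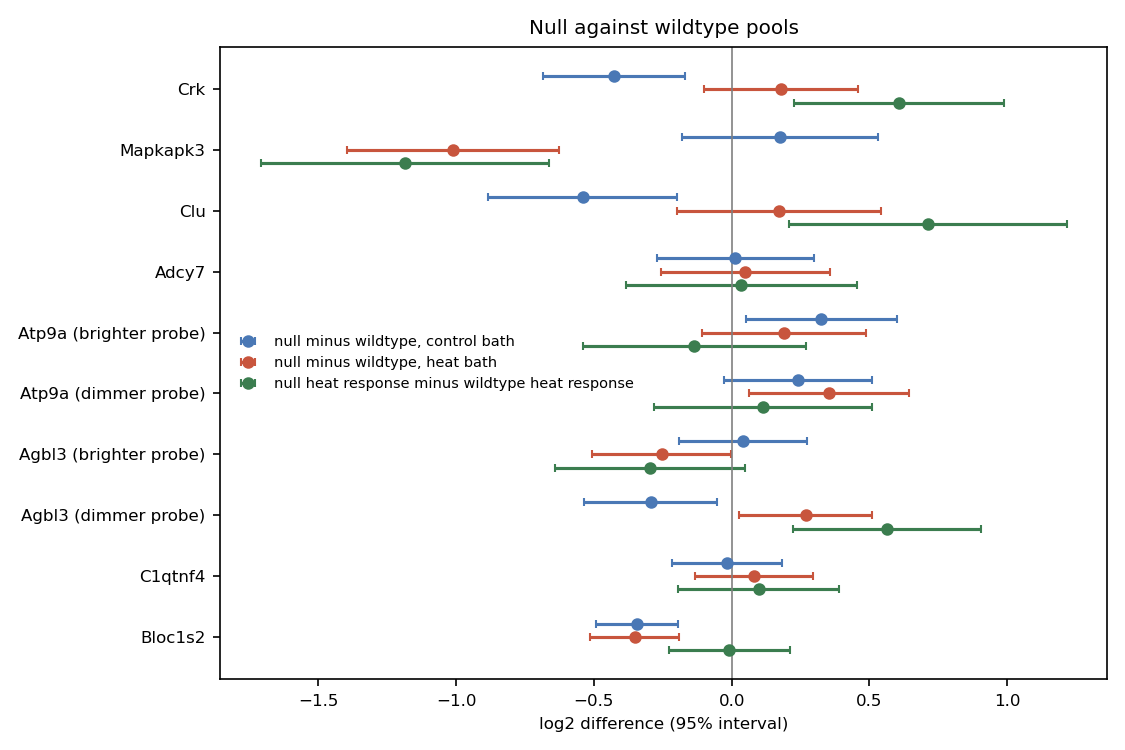
Log2 difference of null minus wildtype for each probe in control pools (blue) and heat pools (red), and of the null minus the wildtype heat step (green), with 95% intervals from the fit over all arrays; 0 is no difference. Mapkapk3 lies farthest left in heat (-1.01) and in the difference of steps (-1.19), while Crk, Clu and Bloc1s2 lie left of 0 in control pools.

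Across the 8 genes, the difference of heat steps between null and wildtype passed for 1, Mapkapk3, where 0.68% of all genes were called. Between heterozygous and wildtype it passed for 0 of 8, with 1 at an unadjusted limma p under 0.05 and 0% of all genes called. Between null and heterozygous it passed for 0 of 8, with 3 at an unadjusted p under 0.05 and 0.0395% of all genes called. Over all 21979 tested probes, 1324 were at that unadjusted p between heterozygous and wildtype, and 3156 between null and heterozygous. These contrasts are built from the heat steps on which the genes were picked, so the counts are not independent of the choice. A p that misses the threshold does not show equal steps.

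Adcy7, which makes cyclic AMP, lay higher in heat than in control pools of each genotype. Control pools read 3.60, 3.83, 3.07 and 3.55 in wildtype, 4.20, 3.79, 3.86 and 3.99 in heterozygous and 3.30, 3.00, 3.51 and 4.49 in null embryos. Heat pools read 6.27, 6.12, 5.91 and 7.10, then 5.78, 5.74, 5.67 and 7.76, then 5.14, 6.60 and 8.28. Heat and control did not overlap in any genotype, and the 3 genotypes overlapped in each bath. The heat step was 1.81-fold, 1.56-fold and 1.85-fold (log2 0.85 ± 0.14, 0.64 ± 0.14 and 0.89 ± 0.15, SE). Null minus wildtype was 0.01 in controls (interval -0.27 to 0.30) and 0.05 in heat (interval -0.26 to 0.36).

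C1qtnf4, the secreted C1q-domain protein, lay near the middle of the array, with 0.94 to 1.07 in wildtype, 1.01 to 1.19 in heterozygous and 0.93 to 1.06 in null controls. Heat pools ranged from 1.33 to 1.62, 1.29 to 1.60 and 1.47 to 1.75 in the same order. All heat pools were above all controls, by log2 0.59 ± 0.10, 0.41 ± 0.10 and 0.68 ± 0.10 (SE), and genotypes overlapped in both baths. As for Mapkapk3, every control pool lay under the level needed for testing, so the C1qtnf4 probe was tested because of its heat pools.

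Atp9a, the P4-type ATPase, is on 2 tested probes that both had higher heat values. The brighter one read 4.42 to 5.69 in wildtype controls and 5.85 to 8.24 in wildtype heat pools, with log2 differences of 0.47, 0.48 and 0.34 in wildtype, heterozygous and null embryos. The dimmer one gave 0.62, 0.54 and 0.73. Both probes put heat above control, but heterozygous pools overlapped on the dimmer one, where control pool C (3.97) lay above heat pool A (3.94). All null controls lay above all wildtype controls on the brighter probe (5.85 to 6.55), and the difference of 0.33 ± 0.13 missed the threshold (limma adjusted p = 0.12).

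The Agbl3 probes disagreed. On the brighter, control and heat pools overlapped in every genotype, with log2 differences of 0.12, 0.19 and -0.18, and wildtype turned to -0.03 on the values as deposited. On the dimmer, wildtype control pools read 0.94, 0.77, 1.01 and 1.04 and heat pools 1.25, 1.36, 1.40 and 1.40, and the log2 differences were 0.53, 0.69 and 1.10. Its null control value for pool C was an empty cell, so that group had 3 pools there. Every control pool lay under the level needed for testing, so this probe too was tested because of its heat pools. The third Agbl3 probe had empty cells in all 12 control columns and read 0.09 to 0.38 in heat pools, so it could not be compared. Agbl3, the tubulin carboxypeptidase, was thus higher in heat on its dimmer tested probe and overlapped between baths on its brighter one.

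The 8 genes were set beside 163 genes of their pathways and families, from lists chosen with earlier results of these data known, of which 112 were tested. With heat, limma adjusted p under 0.05 was reached by 3 higher and 1 lower in wildtype, 1 higher and 4 lower in heterozygous, and 5 higher and 3 lower in null embryos. All genes gave 1.25% higher and 2.35% lower, 0.869% and 2.21%, and 3.51% and 2.83% in the same order. The medians of the 112 genes were -0.10, -0.02 and 0.02, against -0.02, 0.00 and -0.01 over all genes.

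In the p38 and MAPKAP kinase list, 1 of 18 genes rose in each genotype, Hspb1, the small heat shock protein that MAPKAP kinases phosphorylate. Hspb1 was higher by log2 2.38 ± 0.11, 2.05 ± 0.10 and 1.997 ± 0.11 (SE; limma adjusted p = 7.4e-12, 3.2e-11 and 2.4e-10). Its control pools read 15.2 to 20.2 (1 cell was empty) and its heat pools 63.5 to 95.9. The closest relative of Mapkapk3, Mapkapk2, gave -0.54, 0.16 and 1.02 and passed in none. Of 14 adaptor partners of Crk, 1 passed in any genotype, Dock5, a guanine exchange factor for Rac (null -0.40, limma adjusted p = 0.041). The other 2 Dock5 probes gave -0.01 and 0.21 in null embryos and did not pass (limma adjusted p = 0.96 and 0.52).

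Among 8 receptors and ligands that share receptors with clusterin, 3 passed in null embryos: Lrp2 (0.62) and Vldlr (0.73) were higher and Lrp1 (-0.38) lower, with Lrp1 also lower in heterozygous embryos (-0.36). These are lipoprotein receptors, and the other Vldlr probe gave 0.04 in null embryos. Of 21 genes of cyclic AMP signalling, Prkar2b, a regulatory subunit of protein kinase A, was lower in wildtype (-0.43) and heterozygous (-0.45) embryos, and Prkar1a, another such subunit, was higher in wildtype (0.27). The other Prkar2b probe gave -0.43 and -0.65. Prkaca, a catalytic subunit of protein kinase A, gave -0.56, 0.17 and 1.76 in wildtype, heterozygous and null embryos and passed in none (limma adjusted p = 0.053 in null). No tested adenylyl cyclase of that list passed. P4-ATPases and partners (12 tested) and C1q and TNF related proteins (8 tested) had 0 calls by limma in each genotype, with 3, 5 and 4 of the first list and 0, 1 and 1 of the second at an unadjusted p under 0.05 in wildtype, heterozygous and null embryos. Over all 21979 tested probes, 3914, 3461 and 5686 were at that unadjusted p, in the same order.

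Of 11 tubulin-modifying enzymes, Ttll11, a polyglutamylase, was higher in wildtype (0.55), Ttl and Ttll1 lower in heterozygous (-0.49 and -0.62), and in null embryos Ttll1 was higher (0.56) and Ttll5 lower (-0.42). Other probes did not pass for 3 of these genes: that of Ttll11 gave 0.05 in wildtype, the 2 of Ttl 0.23 and -0.33 in heterozygous, and that of Ttll1 -0.36 in heterozygous and 0.30 in null embryos. The null minus wildtype difference of heat steps for Ttll1 was 1.08 (limma adjusted p = 0.025). Among 21 partners of Bloc1s2, Bloc1s3, another BLOC-1 subunit, was higher in null embryos (0.97 ± 0.12, limma adjusted p = 9.7e-05), with -0.21 and -0.18 in wildtype and heterozygous. Its difference of steps between null and wildtype was 1.17 (limma adjusted p = 0.0029), which Bloc1s2 (-0.01) did not share.

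**Figure D4:**
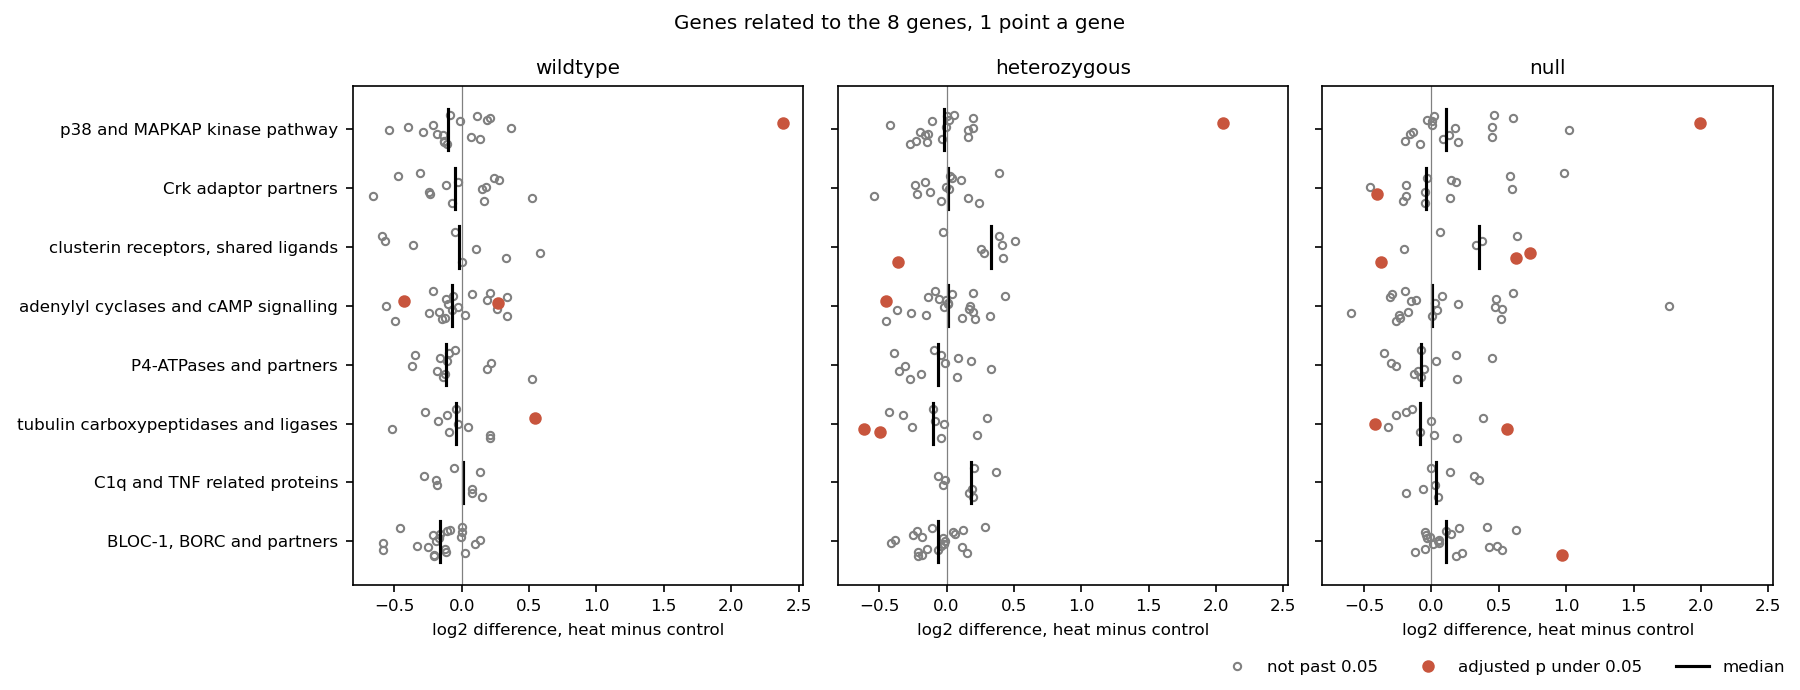
Log2 difference of heat minus control for each tested gene of the 8 pathway and family lists, 1 panel a genotype; filled red points passed adjusted p under 0.05, open points did not, and black lines are list medians. The Hspb1 point lies near 2 in all panels, in the null panel beside Prkaca at 1.76, which did not pass. Apart from these and Mapkapk2 (1.02 in null), all points lie within 1 of 0.

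The genes whose pattern over 22 or 23 arrays was most like each one were found by Pearson r of log2 values, as a description, since all arrays share the 2 baths and the same scaling. Mapkapk3 was most like Fbxw9 (r = 0.93), 1700007K13Rik (0.92) and Def6 (0.89), which had heat differences of 0.80, 2.65 and 1.21 in wildtype and 0.19, 0.77 and 0.27 in null embryos. Crk was most like Mt1, a metallothionein (0.93), Clu (0.93) and Tcte3 (0.92). Clu was most like Krt19, Crk and Hrk (0.93, 0.93 and 0.92). Adcy7 and C1qtnf4 were among each other's 3 closest genes (0.93), and both lay near Smc1b (0.95 and 0.94), a cohesin subunit of meiosis. C1qtnf4 was closest to Tcte3 (0.94), and Adcy7 also lay near Lca5l (0.93). The brighter Atp9a probe was closest to Clta (0.89) and the dimmer to Sqstm1 (0.93), the dimmer Agbl3 probe to Tcte3 (0.90) and the brighter to Nes (0.88), and Bloc1s2 to Rbm34 (0.90).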

How the data were processed

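Levels were measured in 23 pools on 1-colour CodeLink arrays. The deposited values are linear intensities of the authors' processing; no background step, normalization or spot filter by them is known from the sources used here. Empty cells and those with a missing-value code were dropped, a floor was set at each array's 5th percentile of positive values, and log2 values were quantile-normalized on the 18702 probes with a value on every array. Testing required at least 3 values per group and, on at least 3 arrays, a level over the 40th percentile of the array (21979 probes, 12651 genes by brightest probe). limma 3.58.1 (R 4.3.3) fitted 6 group means over all arrays with an intensity trend, two-sided, with Benjamini-Hochberg adjustment over the probes of each comparison. The number of arrays limits the precision. Symbols are those of GEO's annotation of the platform, renewed through gene IDs in the RefSeq table (21487 of 21615 single-symbol probes matched). The script was tested on simulated data. Members and gene lists were chosen with earlier results of these data known. Named were all members and the genes past 0.05 in each related list (at most 4 a list). The 3 likest genes were named for Mapkapk3, Crk, Clu, Adcy7 and C1qtnf4. For each tested probe of Atp9a, Agbl3 and Bloc1s2 only the likest gene was named. Mapkapk2 and Prkaca were named after their values were seen. Pool letters were not taken as pairing: over 15 pairs of groups, 1 had every same-letter correlation over 0.1. The own letter was the best match in 20 of 55 letter pairs. With a replicate block, called probes for null against wildtype went from 123 to 509 in heat and from 1838 to 2850 in controls. They went from 1215 to 1096 for heat in null embryos and from 222 to 193 for the null minus wildtype difference of steps. Alternatives covered normalization, filter, floor, moderation, probe, weights, block, fit and pools; the closing section gives their effect.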

Additional observations from a re-analysis of the deposited data

Results flagged for a closer look

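In 49 groups of 4 pools, 3 had a pool far from the rest by Dixon's criterion, where chance gives about 1 in 20. Crk read 4.36 in wildtype control B, with the other wildtype controls at 4.59 to 4.65. Adcy7 read 7.76 in heterozygous heat D, with the others at 5.67 to 5.78. Bloc1s2 read 22.1 in wildtype control D, with the others at 24.2 to 24.4. The heat step of Mapkapk3 differed between null and wildtype embryos by log2 -1.19, tested as an interaction in limma (adjusted p = 0.025). The genes were picked on their heat steps, so this p is not independent of the choice.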

How the results depend on the processing

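Heat differences stayed above 0 in every alternative run for all genes except Agbl3, whose brighter probe gave -0.03 in wildtype as deposited and whose null difference was above 0 in 1 of 19. No genotype value that was called, before or after, changed sign. Of 17 genotype values in the text, 4 that missed the threshold did, in 15 of 372 runs. The null minus wildtype step of Bloc1s2 (-0.01) became 0.089 median-centred and 0.28 as deposited, and -0.052 to 0.029 without 1 pool. Null against wildtype in controls became -0.058 for Mapkapk3 with the split score, and for Adcy7 (0.01) -0.035 with array weights, -0.13 with the split score and -0.024 with the highest array value, and -0.10 to 0.092 without 1 pool. In heat, Adcy7 (0.05) gave -0.12 to 0.22 without 1 pool. Of 55 further genotype values of the 8 genes, 26 changed sign in 69 of 1219 runs. Of the genotype calls, Mapkapk3 kept its call in 16 of 19 alternatives in heat (adjusted p 0.0036 to 0.23) and in 17 of 27 for the difference of steps (0.013 to 0.097), Bloc1s2 in 18 of 20 in controls and 9 of 19 in heat, and Crk and Clu in 10 of 20 each in controls. The cause was not tested.

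Counts of members called moved as follows. Null against wildtype in heat (2) fell to 1 with arrays centred on their medians, as deposited, with no intensity trend and with array weights, and to 0 with only the groups compared. Null against wildtype in controls (3) fell to 0 as deposited and with the split score and to 1 with the highest array value as a covariate. The difference of steps, null minus wildtype (1), became 2 as deposited and 0 with the split score. Heterozygous against wildtype in heat (0) became 1 with the replicate block, array weights, the split score and the highest array value; it was Mapkapk3 each time. With the replicate block its value was -0.78 (adjusted p = 0.046). The block changed no other call of a member. Both covariates were chosen after seeing the data.

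Related genes called with heat in wildtype (4) became 11 as deposited, 8 with array weights and 10 with the split score. In heterozygous (5) they became 8 with array weights, 1 with only the groups compared, 12 with the split score and 10 with the highest array value. In null (8) they became 3 as deposited, 4 with only the groups compared, 3 with the split score and 30 with the highest array value.

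Leaving out 1 pool at a time gave 2 to 6 related genes in wildtype, 3 to 8 in heterozygous and 2 to 11 in null. Members called ranged from 1 to 2 for null against wildtype in controls, 0 to 2 in heat, 0 to 1 for the difference of steps, 0 to 1 for heterozygous against wildtype in heat and 0 to 1 for null against heterozygous in controls.

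As deposited, the median of all probes moved to -0.12 for heat in wildtype and 0.14 for null against wildtype in heat. The share of called probes that were higher was 41.7% in wildtype heat, 9.95% as deposited and 30.6% median-centred, 52.2%, 63.4% and 36.2% in null, 32.1%, 20.1% and 27% in heterozygous. For null against wildtype in heat it was 45.5%, 88.7% and 33.7%. C1qtnf4 had no value under the 60th percentile filter.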
